A study of Homo sapiens with 33 samples.

Results

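The 1222 bivalent promoters with strong EZH2 binding in H9 human embryonic stem cells (ESCs) were 5-kb windows centred on annotated transcript starts, 1 for each gene. They were chosen by wild-type ChIP-seq reads: H3K27me3 and H3K4me3 each above 5.35 RPM (reads in the window, scaled to the reads of the library), input below that level, and EZH2 at or above 1.84 RPM. They made up 3.55% of the 34448 genes with a window on chromosomes 1 to 22 and 19.9% of the 6132 genes whose promoter passed the H3K27me3 and input limits. Where several windows of a gene passed, the window with the most wild-type H3K27me3 was kept, which reduced 3169 windows to 1222. Neighbouring genes share chromatin, and merging windows that overlapped gave 897 loci, so the promoters were not all separate observations. The levels of these 4 wild-type tracks chose the promoters and are given here as a description.

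Cells of 4 genotypes were profiled: EZH2 +/+ (WT, the parental H9 line), EZH2 -/+ (Het), EZH2 -/- (Null) and EZH2 -/- +EZH2 (Null + EZH2, called restored here). H9 is an established line of human ESCs, and cells were grown on irradiated mouse feeder fibroblasts. The Het and Null lines were clones made with CRISPR/Cas9. Null lines were obtained by targeting the second allele in a Het line that carried a doxycycline-inducible EZH2 transgene in piggyBac, and in restored cells that transgene was expressed. Which clone each library came from is not given in the sources used here, so p-values measure the spread between libraries of a genotype. RNA-seq covered 3 libraries of each genotype from SSEA4-sorted cells, and ChIP-seq gave 1 column for each histone mark and genotype and 1 EZH2 column in WT. EZH2 mRNA stood at 68.6, 63.3 and 59.5 RPM in the WT libraries, 55.4, 52.3 and 45.7 RPM in Het, 11.5, 8.65 and 9.68 RPM in Null and 271, 385 and 256 RPM in restored cells. Restored cells therefore held more EZH2 mRNA than WT cells (log2 fold change 2.23, limma adjusted p = 3.8e-05).

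EZH2 is the catalytic subunit of Polycomb repressive complex 2 (PRC2), which adds methyl groups to lysine 27 of histone H3 together with the subunits SUZ12 and EED. H3K27me3 marks repressed promoters, while H3K4me3 marks promoters open to transcription, and a promoter that carries both is called bivalent. In ESCs bivalent promoters typically belong to developmental regulators that are silent or barely transcribed until cells commit to a lineage. H3K27ac, found at active promoters and enhancers, occupies the same residue as H3K27me3, so a single histone tail cannot carry both.

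The promoters of 7 genes, chosen after their values were seen, show what such sequences look like. Each run is the 250 bases before the RefSeq transcript start in build GRCh38.p14, written 5′ to 3′ on the strand of the gene, with CG dinucleotides in capitals. HOXD13 (chr2:176092471-176092720, plus strand, 21 CpGs), PITX1 (chr5:135034229-135034478, minus, 29), HAND1 (chr5:154478228-154478477, minus, 16) and FOXQ1 (chr6:1311848-1312097, plus, 29) belong to developmental regulators with more RNA in Null than in restored cells. SOX1 (chr13:112066899-112067148, plus, 31) is a neural factor with less RNA in Null than in WT cells. IFT140 (chr16:1612073-1612322, minus, 33) is an expressed intraflagellar transport gene, and TFAP2D (chr6:50713276-50713525, plus, 3 CpGs) had the largest H3K27ac difference between Null and restored cells.
HOXD13: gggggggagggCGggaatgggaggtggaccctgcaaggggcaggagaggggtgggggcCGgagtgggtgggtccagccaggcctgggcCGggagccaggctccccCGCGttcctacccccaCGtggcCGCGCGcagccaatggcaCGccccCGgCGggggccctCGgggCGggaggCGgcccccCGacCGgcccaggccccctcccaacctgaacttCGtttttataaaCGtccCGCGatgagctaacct
PITX1: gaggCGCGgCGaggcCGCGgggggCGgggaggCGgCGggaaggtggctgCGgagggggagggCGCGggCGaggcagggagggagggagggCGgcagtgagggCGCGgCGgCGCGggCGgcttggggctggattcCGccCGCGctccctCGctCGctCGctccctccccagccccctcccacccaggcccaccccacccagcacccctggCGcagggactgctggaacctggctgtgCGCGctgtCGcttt
HAND1: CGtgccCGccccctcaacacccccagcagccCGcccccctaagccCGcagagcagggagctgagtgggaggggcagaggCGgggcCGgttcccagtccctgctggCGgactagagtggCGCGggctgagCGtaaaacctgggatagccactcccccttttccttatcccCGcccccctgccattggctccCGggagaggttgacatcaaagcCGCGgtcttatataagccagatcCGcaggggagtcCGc
FOXQ1: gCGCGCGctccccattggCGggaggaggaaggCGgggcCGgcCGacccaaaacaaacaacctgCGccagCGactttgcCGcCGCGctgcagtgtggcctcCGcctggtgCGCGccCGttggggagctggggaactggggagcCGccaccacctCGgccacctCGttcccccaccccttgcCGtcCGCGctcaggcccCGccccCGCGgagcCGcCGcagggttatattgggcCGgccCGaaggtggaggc
SOX1: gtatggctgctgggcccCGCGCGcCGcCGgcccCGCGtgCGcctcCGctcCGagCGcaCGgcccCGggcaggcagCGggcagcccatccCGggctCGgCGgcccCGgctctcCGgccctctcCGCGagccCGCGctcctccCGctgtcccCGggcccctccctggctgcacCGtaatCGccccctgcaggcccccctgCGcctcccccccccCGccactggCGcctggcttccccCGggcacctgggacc
IFT140: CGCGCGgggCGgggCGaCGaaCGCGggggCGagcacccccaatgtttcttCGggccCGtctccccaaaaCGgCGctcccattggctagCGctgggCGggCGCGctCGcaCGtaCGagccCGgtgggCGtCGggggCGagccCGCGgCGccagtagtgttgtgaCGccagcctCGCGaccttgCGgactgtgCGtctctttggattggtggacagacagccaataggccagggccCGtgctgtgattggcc
TFAP2D: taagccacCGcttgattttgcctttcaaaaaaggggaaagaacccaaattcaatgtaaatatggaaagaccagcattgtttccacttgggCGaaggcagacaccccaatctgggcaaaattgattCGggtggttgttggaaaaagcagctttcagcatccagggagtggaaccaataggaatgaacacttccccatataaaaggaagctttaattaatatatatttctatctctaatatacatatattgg
The first 6 are dense in CpG, and the TFAP2D run is not.

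Dense CpG was general among these promoters. Their windows held a median of 51.8 CpGs per kb (quartiles 41.8 and 63.2), against 36.4 per kb at 3908 bivalent promoters with weaker EZH2, 25.6 per kb at 1002 promoters with H3K27me3 but without H3K4me3, and 21.4 per kb over the windows of all genes. Median GC content was 57.4%, 53.4%, 51.6% and 47.7% in the same order. RefSeq promoters, taken from 250 bases before to 50 after the start, lay inside the window for 526 of the genes and held a median of 28 CpGs (quartiles 19 and 37), where all 27305 RefSeq promoters held 14 (3 and 28). The GC box GGGCGG occurred on either strand in 74.0% of the 526 and in 44.6% of all RefSeq promoters, and CGCGCG in 40.9% and 16.2%. The TATA box TATAAA occurred in 11.2% of the 526 and 12% of all, and the E-box CACGTG in 9.89% and 7.43%. The motifs were searched as letters on both strands, and neighbouring matches can share bases. HOXD13 and TFAP2D each hold 1 TATAAA in the runs above.

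Most of the genes encode proteins (841, 68.8%, against 53.5% of all genes with a window) and 338 were long noncoding RNAs. Developmental transcription factors were the largest recognisable families. The windows took in 36 of 39 HOX genes, the homeobox factors of axial patterning, and all 5 GATA and 6 DLX genes listed. They also took in 12 of 15 T-box, 11 of 12 LIM homeobox, 8 of 9 PAX, 11 of 14 NKX, 31 of 56 basic helix-loop-helix (bHLH) and 22 of 41 forkhead genes. WNT ligands (10 of 19) were about as frequent as forkhead genes. Other ligands were rarer, with 5 of 20 FGF and 5 of 26 BMP or GDF genes, and so were potassium channels (14 of 93) and neurotransmitter receptors (13 of 92). No gene of the PRC2, opposing-enzyme, human ESC marker or fibroblast marker lists was among them. The locus with most genes was the J2 cluster of the T-cell receptor beta genes (chromosome 7, 142793865 to 142799956), whose 8 J segments share 6.1 kb and are in effect 1 region. The next held 6 genes of the HOXA cluster (chromosome 7, 27140275 to 27155098).

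WT EZH2 at these promoters ranged from 1.85 to 16.6 RPM, with a median of 3.07 RPM. The 6 highest were TBX2-AS1 (16.6 RPM), RP11-332H18.5 (15.1), RP11-353N14.1 (14.5), HOXB-AS3 (14.4), HOXB6 (13.3) and HOXB8 (13.1), and the windows of TBX2-AS1 and RP11-332H18.5 overlap. Just inside the limit lay RP11-68I3.4, HEY1 and MARCHF9, all at 1.846 RPM, and just outside lay LRRC3B and TJP1, both at 1.835 RPM, so the limit cut through a continuous range. EZH2 rose with H3K27me3 over the 1222 promoters (Spearman rho 0.72), but hardly with H3K4me3 (0.045) and only weakly with CpG density (0.229). EZH2, H3K27me3 and H3K4me3 were all used in the selection, so these correlations only describe it, and overlapping windows share reads.

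H3K27me3 was far lower in Null than in WT cells and stood close to WT in restored cells. The median over the 1222 promoters was 28.3 RPM in WT, 33.0 RPM in Het, 1.25 RPM in Null and 24.9 RPM in restored cells, while input medians lay between 1.19 and 1.36 RPM. Between Null and restored cells, which did not enter the selection, the median log2 difference was -4.05 (quartiles -4.45 and -3.61), a 16.6-fold lower level. H3K27me3 was lower in Null by more than 1 log2 unit at 1218 promoters (99.7%), against 37.9% of the windows of all genes, and higher by as much at 0 (1.86%). At HOXD13 it was 40.9, 46.3, 1.62 and 37.4 RPM in WT, Het, Null and restored cells, and at TWIST1, a bHLH factor of mesenchyme, 31.2, 31.8, 0.898 and 25.4 RPM. The median difference was -3.23 at bivalent promoters with weaker EZH2 and -2.90 at promoters without H3K4me3. Each mark had 1 column per genotype, so no ChIP difference between genotypes had a test.

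**Figure D1:**
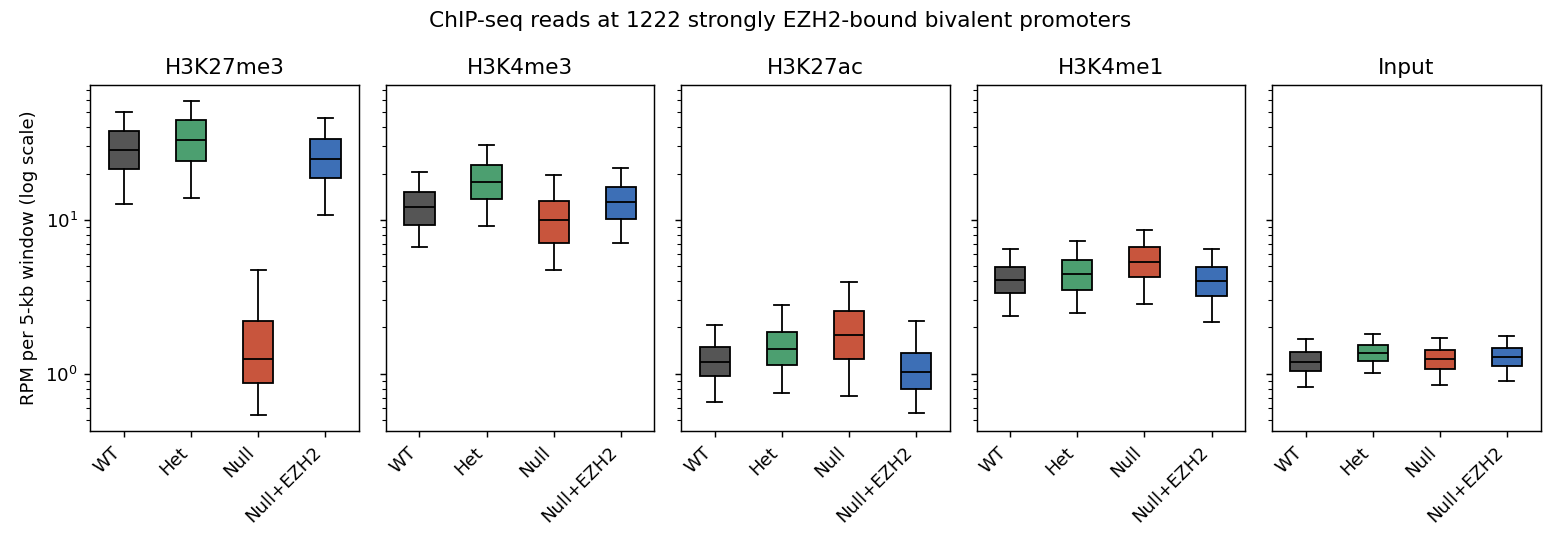
ChIP-seq reads in the 1222 promoter windows (RPM per 5-kb window, log scale) in the 4 genotypes for each mark and input. Boxes span the quartiles with a line at the median, and whiskers reach from the 5th to the 95th percentile of promoters. H3K27me3 drops from a median of 28.3 RPM in WT to 1.25 RPM in Null and stands at 24.9 RPM in restored cells, while the other marks move far less.

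H3K27ac was higher in Null than in restored cells at most of these promoters, though from a low level. Its median was 1.20, 1.44, 1.78 and 1.03 RPM in WT, Het, Null and restored cells, beside input at 1.19 RPM in WT and 1.29 RPM in restored cells. The median log2 difference between Null and restored cells was 0.70 (quartiles 0.39 and 0.99), positive at 1112 promoters (91.0%, against 63.7% of all genes). It passed 1 log2 unit at 295 promoters (24.1%, against 3.83% of all genes) and was as far below at 2 (0.164%, against 2.18%). Of bivalent promoters with weaker EZH2, 94.9% were positive and 17.6% passed 1 log2 unit, with a median of 0.67. Against WT, which shares the Null column, the median was 0.54, and 275 promoters (22.5%, background 7.81%) passed 1 log2 unit higher and 15 (background 3.4%) lower. There the weaker-EZH2 promoters had the larger difference (0.71 and 24.5%). In the Null H3K27ac column 5.35 RPM stood for 46.6 reads, beside 111 in the restored one, and the median promoter had about 15.5 H3K27ac reads in Null and 21.5 in restored cells, and the difference at a single promoter was imprecise. Input moved by a median of -0.05 between the same cells.

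The largest H3K27ac differences were at TFAP2D, an AP-2 family factor (log2 2.42, from 0.255 RPM in restored to 1.80 RPM in Null cells), TBX5-AS1 (2.15), FAM155A (2.07) and TBX5, a T-box factor of heart and forelimb (1.91). RP11-523H20.3 (1.84) and RP11-247A12.2 (1.82) followed. In restored cells the TFAP2D value stood on about 5.3 reads, and those of TBX5 and TBX5-AS1, whose windows overlap, on 9.8 and 9.5 reads. Transcripts of the 6 genes differed widely. TFAP2D had 0.0352, 0.0188 and 0 RPM in the Null libraries and no read elsewhere, whereas TBX5 had 1.07, 0.807 and 0.564 RPM in Null and no read in the 9 other libraries.

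H3K4me3 and H3K4me1 moved in opposite directions and less. H3K4me3 had a median of 9.96 RPM in Null and 13.1 RPM in restored cells, a median log2 difference of -0.36, with 48 promoters (3.93%, background 0.975%) past 1 log2 unit lower and 0 higher (background 0.653%). At weaker-EZH2 promoters the median was -0.03. H3K4me1, typical of enhancers and promoter flanks, had a median log2 difference of 0.39, positive at 96.4% of the promoters (background 65.3%). It passed 1 log2 unit higher at only 14 (1.15%, background 0.308%) and lower at 1 (background 1.07%). At weaker-EZH2 promoters the median was 0.31, and 91.8% were positive. The WT H3K4me3 column was the shallowest of all, with 5.35 RPM standing for 18.3 reads, and differences from it are left as levels.

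A remainder of H3K27me3 reads in Null cells lay where EZH2 had been strongest. Over Null input the median log2 difference was 0.07 (quartiles -0.47 and 0.80), above 0 at 52.8% of promoters and 19.6% of all genes. Centred on promoters at or below the WT H3K27me3 limit, this median was 0.80. Uncentred, 255 promoters (20.9%) exceeded input by more than 1 log2 unit, against 6.18% of all genes, 1.82% of weaker-EZH2 promoters and 7.09% of promoters without H3K4me3. Null H3K27me3 rose with WT EZH2 (rho 0.615) and with WT H3K27me3 (0.641) but not with Null input (0.029), over 1222 promoters that share columns and, in part, reads. Across quartile groups of the promoters by EZH2 (1.85 to 2.32, 2.33 to 3.07, 3.08 to 5.17 and 5.18 to 16.6 RPM), median Null H3K27me3 was 0.915, 0.995, 1.45 and 2.82 RPM. More than 1 log2 unit over input was seen at 10, 15, 47 and 183 promoters of these groups. By family, 23 of 36 HOX, 7 of 11 LIM homeobox, 7 of 11 NKX and 5 of 8 PAX promoters exceeded input by that much, and 15 of 24 on the neural ectoderm list, but 0 of 14 potassium channels and 0 of 5 FGF genes. ONECUT3, a homeobox factor, kept 9.54 RPM of 49.7 RPM in WT, and TBX2-AS1 5.86 of 50.9 RPM. At DUX4L6, DUX4L3 and DUX4L2 the Null level exceeded WT (18.6, 18.5 and 17.8 RPM in Null against 9.73, 10.8 and 9.56 RPM in WT). These are near-identical repeat copies among which reads cannot be placed with confidence, and none had an RNA read.

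At the 255 promoters with remaining H3K27me3 the H3K27ac difference was smaller. H3K27ac was higher in Null than in restored cells by more than 1 log2 unit at 25 of the 255 (9.80%) and at 270 of the other 967 (27.9%), with median differences of 0.46 and 0.77. Among tested genes, 26 of 113 (23%) had more RNA in Null than in restored cells at the 255 promoters and 106 of 689 (15.4%) at the rest. Fewer of the 255 reached the level for a test. Over all genes, tested or not, the calls were 26 of 255 and 106 of 967, and these shares lay close together. Over the 1222 promoters the H3K27ac difference fell as Null H3K27me3 rose (rho -0.343). Both values come from Null cells, though from different columns, and the 255 were grouped after the data were seen.

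**Figure D2:**
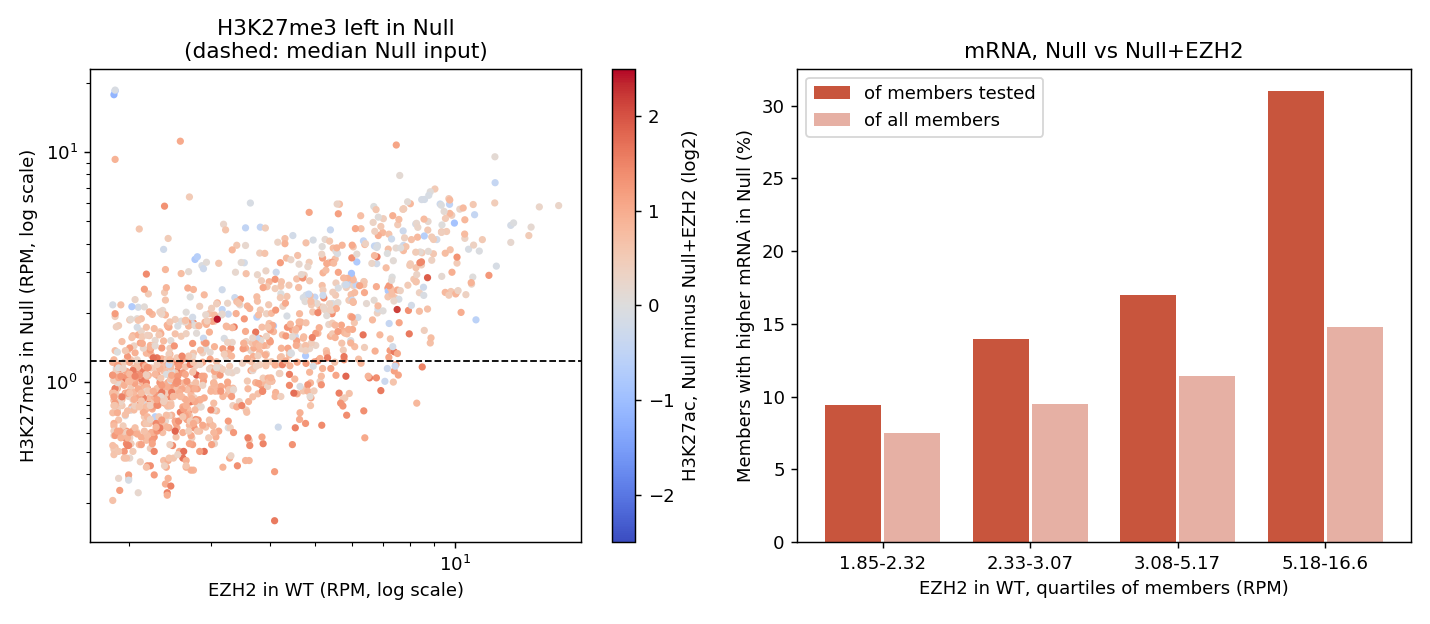
Null H3K27me3 against WT EZH2 at the 1222 promoters (RPM, log scales), coloured by the log2 H3K27ac difference between Null and restored cells, and the share of tested genes with more RNA in Null than in restored cells and of all genes in each quartile group by EZH2 (bars). The dashed line is the median of Null input. Null H3K27me3 climbs from a median of 0.915 RPM in the lowest to 2.82 RPM in the highest group. The share of tested genes rises from 9.43% to 31.0% and that of all genes from 7.49% to 14.8%, while the number tested falls from 244 to 145.

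In RNA, 802 of the 1222 genes had a mean of at least 0.1 RPM over the 12 libraries and were tested, 420 lay below that level, and 104 had no read at all. In bulk RNA more cells making a transcript and more transcript in each cell cannot be told apart. Between Null and restored cells, 132 genes were higher and 3 lower in Null (limma, adjusted p below 0.05), where 2.63% and 0.525% of all 20588 genes tested were called. That was 16.5% of the tested and 10.8% of all 1222 genes, against 4.98% of tested genes with weaker EZH2 and 6.24% of those without H3K4me3. The median log2 fold change was 0.60 over the 802 genes and 0.02 over all genes tested. Some genes passed the level filter only through the Null libraries, and 14 of the 132 had no read in restored cells. Among the 685 genes with at least 0.1 RPM in restored cells, 86 were higher (12.6%, against 1.98% of all such genes). With same-numbered libraries as a replicate block, 229 genes were higher and 8 lower (background 6.19% and 3.21%). The 3 Null libraries lay above all restored libraries in 333 genes and below them in 32, where 13.5% and 9.69% of all genes did. The count of 132 fell when any 1 of 5 libraries was left out: without Null library 2 it was 38, and without Null library 3 it was 56. Leaving out restored libraries 1, 2 or 3 gave 72, 60 and 72, and without Null library 1 it was 155.

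Reads on genes ranged from 16582398 to 36577092 per RNA library, and 3 reads, the limit that a count of 0 allows, stood for 0.0528 to 0.120 RPM, counting error only. All 10 human ESC markers were above 0 in every library, with sums of 2517 to 3119 RPM in WT, 3338 to 4173 RPM in Het, 3889 to 4411 RPM in Null and 3615 to 4323 RPM in restored libraries, so that WT lay below the rest. Markers of other cell types moved with the genotypes. The 10 endoderm markers, 8 of which belong to the genes described here, summed to 30.5 to 69.0 RPM in WT, 197 to 529 RPM in Null (highest in library 2) and 34.6 to 105 RPM in restored libraries, and to 498 RPM in Het library 2 against 19.6 and 91.4 RPM in the other Het libraries. A large part was CER1, which is outside the selection, with 116, 308 and 84.8 RPM in Null and 358 RPM in Het library 2. Among the 8 in the selection, 2 were higher and 0 lower in Null than in restored cells by limma. The 10 mesoderm markers, 5 of them among these genes, summed to 55.7 to 88.0 RPM in WT, 199 to 283 RPM in Null and 85.1 to 190 RPM in restored libraries. The 8 fibroblast markers summed to 561 to 914 RPM in Null and 751 to 981 RPM in restored cells. COL3A1 reached 4.70, 109 and 47.8 RPM in the Null libraries and at most 3.96 RPM elsewhere. LUM had 0.369, 6.25 and 3.15 RPM in Null and at most 0.507 RPM elsewhere. PDGFRB had 5.74, 20.1 and 12.9 RPM in Null and 3.52 to 5.86 RPM in restored libraries, which overlapped, as did COL1A1, COL1A2 and THY1. VIM was lower in Null (270 to 365 RPM) than in restored libraries (438 to 748 RPM), and DCN was at most 0.169 RPM in any library. The 8 neural ectoderm markers, 7 of them among these genes, summed to 235 to 355 RPM in WT, 250 to 329 RPM in Het, 364 to 407 RPM in Null and 248 to 365 RPM in restored libraries. Most of each sum was NES, which is outside the selection, with 246.6, 196.1 and 198.6 RPM in WT and 337.3, 349.9 and 312.3 RPM in Null. Among the 7 in the selection, 5 were tested by limma. In Null, 1 was higher and 0 lower than in restored cells, and 0 were higher and 2 lower than in WT. The part of these cell populations in the RNA differences was not tested.

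T-box and mesodermal regulators were often among the genes that rose. Of 9 tested T-box genes 7 were higher in Null than in restored cells, as were 9 of 15 genes on the mesoderm list (14 with the replicate block), with 0 lower in either. TWIST1 had 5.61, 7.96 and 8.34 RPM in Null and 0.257, 0.161 and 0.320 RPM in restored libraries (log2 fold change 4.43, SE 0.31, limma adjusted p = 1.7e-05). All 3 Null libraries lay far above the others, and WT stood at 0.155, 0.304 and 0.240 RPM. PITX1, a homeobox factor of hindlimb and pituitary, had 1.99, 20 and 10.9 RPM in Null and 0.257, 0.268 and 0.120 RPM in restored cells (4.65, SE 0.66, adjusted p = 0.0034). HAND1, a bHLH factor of heart and extraembryonic mesoderm, had 2.69, 35.9 and 31.3 RPM against 0.283, 0.322 and 1.92 RPM (4.41, SE 0.88, adjusted p = 0.0194). Null library 1 was the lowest of its group for both, yet above every restored library. TBX3 had 7.12, 16.0 and 10.4 RPM against 0.360, 0.563 and 1.56 RPM (3.74, SE 0.50, adjusted p = 0.0028). TBX15 reached 1.65, 1.33 and 1.96 RPM against 0.0257, 0 and 0 RPM. T, or brachyury, the primitive streak T-box factor, had 17.3, 30.6 and 28.8 RPM in Null and 12.3, 2.28 and 0.999 RPM in restored cells, and its adjusted p was 0.0536, or 0.0109 with the replicate block (0.0209 against WT).

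Of 21 tested bHLH genes 8 rose, including HAND2 (chosen after its values were seen), which had no read in restored libraries and was at least 27.6-fold higher against a floor of 3 reads per library (0.158, 3.30 and 4.19 RPM in Null, with reads of HAND2-AS1 possibly among them). Of 19 forkhead genes 6 rose (12 with the replicate block), as did 3 of 5 GATA genes (5 with the block) and the homeobox gene SIX2. FOXC1, a mesodermal forkhead factor, had 2.34, 3.60 and 2.52 RPM in Null and 0.103, 0.0536 and 0.0400 RPM in restored cells (log2 4.14, SE 0.31, adjusted p = 2.14e-05). FOXQ1 had 3.50, 14.0 and 4.72 RPM against 0.489, 0.348 and 0.440 RPM (3.58, SE 0.87, adjusted p = 0.0451). IGF2, an imprinted growth factor, had 8.81, 66.8 and 60.2 RPM against 0.797, 1.98 and 5.08 RPM (3.95, SE 0.79, adjusted p = 0.0198), with Null library 1 again lowest. DIO3, which inactivates thyroid hormone, rose from 0.180, 0.241 and 0.480 RPM to 2.11, 9.37 and 3.38 RPM (3.45, SE 0.52, adjusted p = 0.0044).

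**Figure D3:**
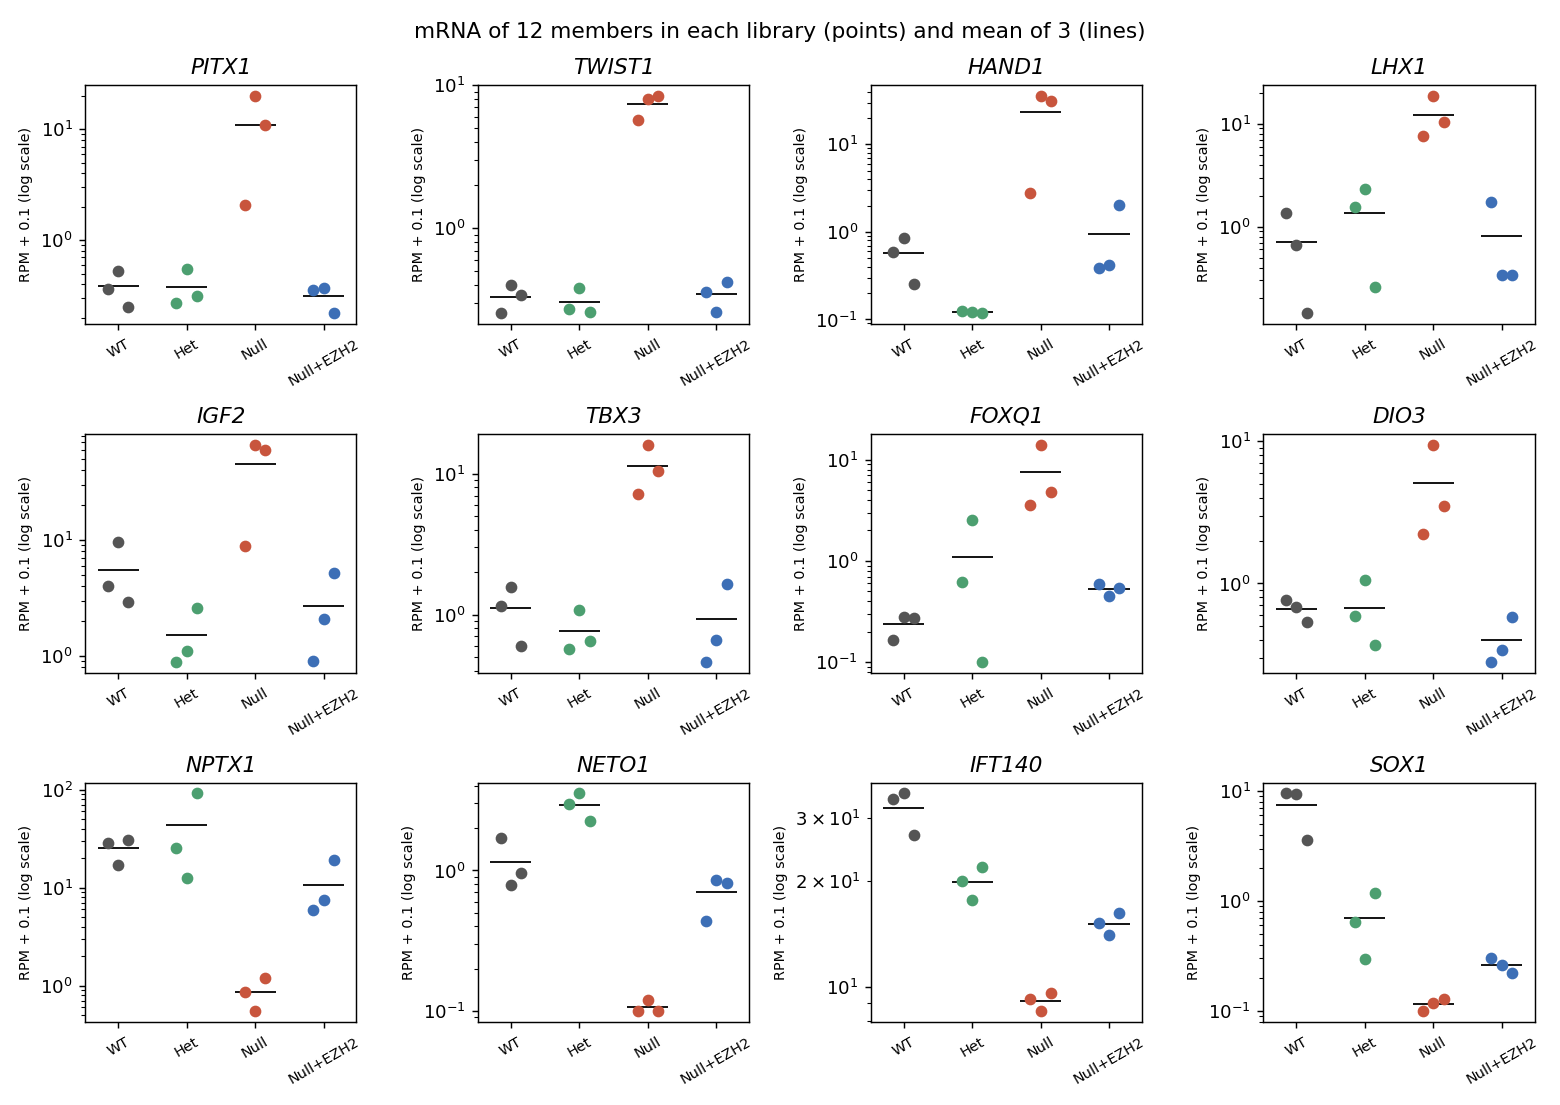
RPM of single libraries (log scale, with 0.1 added so that 0 can be drawn) for 12 genes in the 4 genotypes, each point 1 library and each line the mean of 3. For TWIST1, PITX1 and HAND1 all Null points lie above all restored points, and NPTX1 shows the reverse.

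Of 36 HOX genes in the selection 20 were tested, and 12 of these (15 with the replicate block) were higher in Null than in restored cells and 0 lower. The 12 were HOXA7, HOXA9, HOXA10, HOXA11, HOXA13, HOXB4, HOXB5, HOXB6, HOXB7, HOXB13, HOXD10 and HOXD13. With no read in restored libraries, HOXA7, HOXA9, HOXA10, HOXA13, HOXB4, HOXB5, HOXB7 and HOXD13 could only be called higher. HOXD13, which patterns the limb tips and hindgut, had 2.13, 4.37 and 2.49 RPM in Null and no read in restored libraries, at least 32.4-fold higher against the floor of 3 reads per library (limma adjusted p = 1.7e-05). HOXB6 had 0.264, 4.47 and 3.03 RPM in Null and 0.0257, 0.0268 and 0.120 RPM in restored cells (log2 3.51, SE 0.73, adjusted p = 0.0222). The other 8 did not pass, among them HOXB8 (adjusted p = 0.052, 0.0277 with the block), HOXB9, HOXC4, HOXC6, HOXA2, HOXB3 and HOXB2. HOXB2 had 2.37, 4.15 and 5.97 RPM in Null and 7.82, 3.81 and 3.40 RPM in restored cells (adjusted p = 0.853). Summed over the 9 HOXD genes of the selection, RNA was 2.81, 6.48 and 3.77 RPM in Null libraries and at most 0.380 RPM in any other. HAGLR and HAGLROS, noncoding RNAs also in the selection, were not in that sum. The 17 HOXA promoters, antisense RNAs included, gave 6.51, 18.7 and 19.8 RPM in Null, 6.15, 1.23 and 4.40 RPM in restored cells and 16.7, 27.4 and 10.6 RPM in WT. The 13 HOXB promoters, also with antisense RNAs, gave 7.71, 22.9 and 24.8 RPM in Null and 13.7, 7.93 and 6.83 RPM in restored cells, which overlapped. In WT they gave 14.7, 41.1 and 7.01 RPM. Counting ignored strand, so HOX genes and their antisense partners share reads.

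Endodermal regulators moved with a wider spread. Of 10 tested, 3 were higher in Null than in restored cells, SOX17 and LHX1 among them. SOX17, an endoderm-defining HMG-box factor, had 16.6, 29.2 and 15.8 RPM in Null and 4.47, 2.52 and 3.04 RPM in restored cells (log2 2.56, SE 0.56, adjusted p = 0.0274). GATA6 had 21.0, 45.6 and 20.9 RPM against 6.35, 2.30 and 3.64 RPM, without overlap, and its adjusted p was 0.0868, or 0.0276 with the replicate block. GATA4 had 11.8, 38.4 and 17.9 RPM against 5.50, 2.73 and 3.16 RPM (adjusted p = 0.132, or 0.0433 with the block). Het library 2 stood apart in these genes, at 19.2 RPM for SOX17 and 18.7 RPM for GATA6, where the other Het libraries had at most 5.71 RPM. With the replicate block 6 of the 10 were higher.

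Few neural ectoderm regulators were called in this comparison. Of 16 tested only ZIC1 was higher in Null than in restored cells, and 6 were lower in Null than in WT (GBX2, LMX1A, PAX3, PAX6, PAX7 and SOX1). SOX1, among the earliest neural factors, had 9.41, 9.33 and 3.50 RPM in WT, 0.539, 0.194 and 1.09 RPM in Het, 0, 0.0188 and 0.0297 RPM in Null and 0.206, 0.161 and 0.120 RPM in restored cells. Its WT libraries lay above all others, and the Null libraries with a read had 1 read each. PAX6, an eye and forebrain factor, had 8.48, 8.11 and 3.37 RPM in WT, 0.510, 1.76 and 0.920 RPM in Null and 0.386, 0.348 and 0.520 RPM in restored cells. OLIG2 had 1.48, 0.995 and 1.42 RPM in Null and 0.874, 1.82 and 1.52 RPM in restored cells, which overlapped, with a log2 fold change of -0.07 (SE 0.33). No NKX, DLX or POU gene passed by limma, among 4, 2 and 4 tested, and with the replicate block 1 NKX and 1 POU gene rose.

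Cell-cycle inhibitors, ligands and neuronal genes formed smaller groups. CDKN2A, which encodes the inhibitor p16, had 10.0, 14.1 and 15.0 RPM in Null and 2.70, 1.80 and 1.72 RPM in restored cells (log2 2.60, SE 0.32, adjusted p = 0.00178), and WT had 0.444, 0.456 and 0.328 RPM. CDKN2C, the only other member of that list here, had 0.493, 0.432 and 0.327 RPM in Null and no read in restored libraries. Of the ligands, 1 of 7 WNT genes rose (WNT11), 1 of 5 FGF genes (FGF18) and 0 of 5 BMP or GDF genes (1 with the replicate block). BMP7 had 12.7, 19.4 and 17.9 RPM in Null and 7.46, 9.11 and 11.6 RPM in restored cells (adjusted p = 0.159). Among 13 tested potassium channels 0 rose and 0 fell by limma, and 1 rose and 1 fell with the replicate block. Of 10 tested neurotransmitter receptors GRIN1 rose. Of the 4 PRC1 genes, whose complex also acts at Polycomb promoters, BMI1 (chosen after its values were seen) had 33.6, 34.7 and 20.8 RPM in Null and 6.07, 5.95 and 3.80 RPM in restored cells (log2 2.47, adjusted p = 0.0028). It overlaps the read-through COMMD3-BMI1, so its reads could be split. PCGF5 had a log2 fold change of -0.0048 (SE 0.18, 6.03, 5.12 and 5.79 RPM against 6.17, 5.20 and 5.64 RPM).

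**Figure D4:**
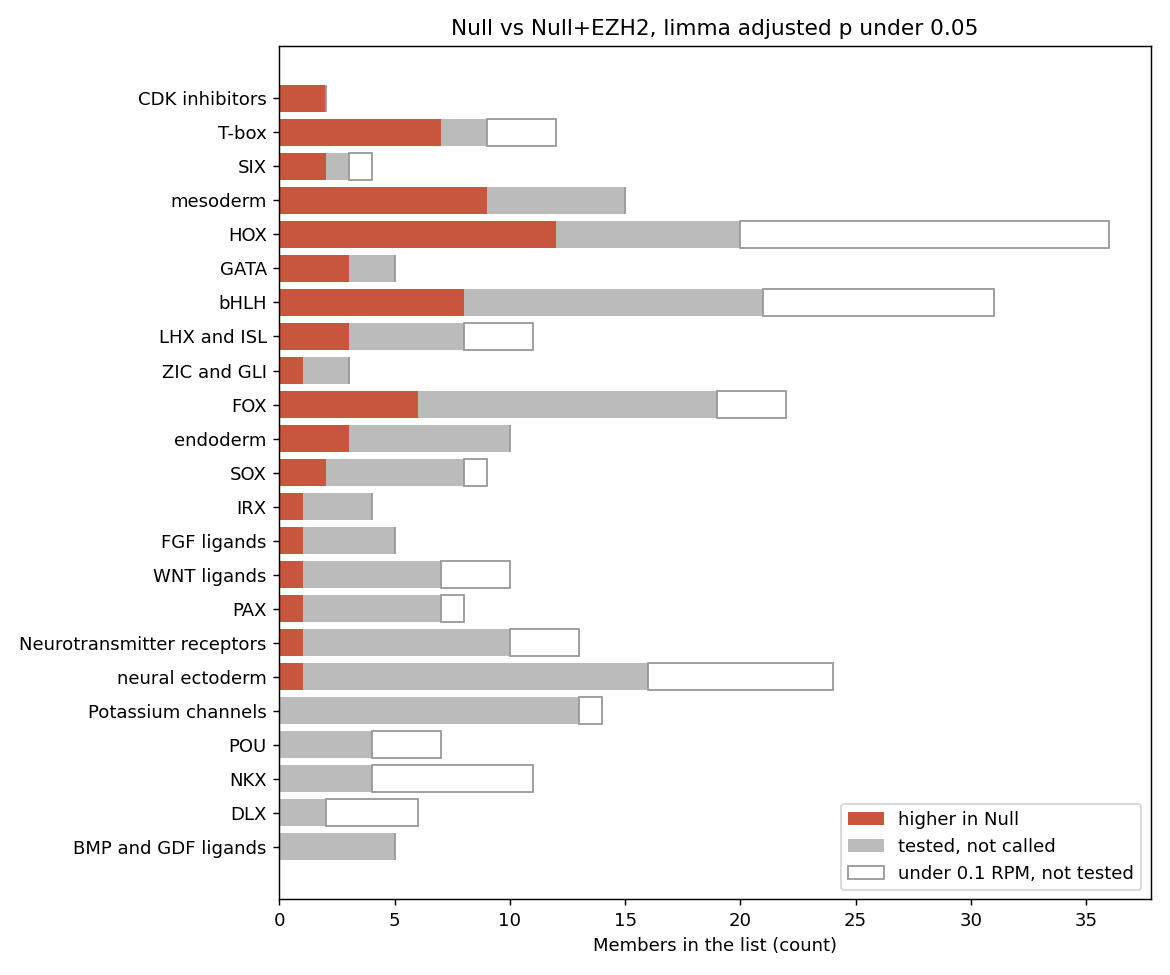
For each gene list, the number of its genes in the selection that were higher in Null than in restored cells, were tested without a call, or lay under 0.1 RPM. No gene of these lists was lower. The T-box list holds 7 calls among 9 tested genes and the HOX list 12 among 20, while the NKX, DLX, POU, BMP and GDF, and potassium channel lists hold 0.

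The 3 genes lower in Null than in restored cells were NPTX1, NETO1 and IFT140. NPTX1, a neuronal pentraxin, had 0.756, 0.451 and 1.10 RPM in Null, 5.76, 7.37 and 18.9 RPM in restored cells and 28.6, 16.7 and 30.8 RPM in WT (log2 -3.51, SE 0.62, adjusted p = 0.011 against restored cells). NETO1, an auxiliary protein of glutamate receptors, had a single read in the 3 Null libraries and 0.334, 0.750 and 0.719 RPM in restored cells (adjusted p = 0.00287). IFT140 had 9.18, 8.47 and 9.53 RPM against 15.1, 13.9 and 16.1 RPM (-0.72, SE 0.15, adjusted p = 0.0228). Its promoter lost H3K27me3 like the rest (9.18, 10.5, 0.605 and 8.31 RPM in WT, Het, Null and restored cells) and carried more H3K27ac than most (5.59 RPM in Null). The smallest fold changes, among genes whose mean reached 1 RPM, were those of ASTN2, LINC00599, MAPK4, PCGF5, POLE and RP13-672B3.2, from -0.0103 for RP13-672B3.2 to 0.0132 for MAPK4 on the log2 scale, with SEs of 0.18 to 0.49. POLE, a DNA polymerase subunit, had 71.1, 59.7 and 50.0 RPM in Null and 78.5, 59.9 and 44.3 RPM in restored cells.

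Calls were more frequent where EZH2 had been stronger. Across the quartile groups by EZH2, 23, 29, 35 and 45 genes were higher in Null than in restored cells, which was 9.43%, 14.0%, 17% and 31.0% of those tested and 7.49%, 9.51%, 11.4% and 14.8% of all genes in each group. Fewer genes reached the level for a test as EZH2 rose (244, 207, 206 and 145), and median WT RNA was 0.943, 0.543, 0.318 and 0.0333 RPM. Genes whose H3K27ac was higher by more than 1 log2 unit had more RNA calls (55 of 201, 27.4%) than the others (77 of 601, 12.8%). Over 802 genes the RNA fold change went only weakly with the H3K27ac difference (rho 0.167), somewhat more with WT EZH2 (0.264), and not with the H3K4me1 difference (0.008). Most of the 132 genes with more RNA had no such gain in H3K27ac: 55 (41.7%) passed 1 log2 unit. H3K27ac reads per promoter were few, and the part of that imprecision in these correlations was not tested.

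Against WT, which shares the Null libraries with the comparison above, these genes were called in both directions. Lower calls were no more frequent than over all genes tested. In Null 197 genes were higher and 129 lower than in WT (background 12.6% and 18.8%), and with the replicate block 234 and 186 (background 17.3% and 28.0%). The limma calls were 24.6% and 16.1% of the 802 genes tested. Among tested genes with weaker EZH2 they were 16.9% and 20.4%, and among those without H3K4me3 19.5% and 13.8%. With RPM rescaled by the median ratio 27.4% were higher (16.4% of all genes) and 13.5% lower (13.7%). Among the 734 genes with at least 0.1 RPM in WT, 142 were higher (19.3%, against 11% of all such genes), with a median log2 fold change of 0.05. The median was 0.13 over the 802 genes, beside -0.13 over all genes tested, and over the same-numbered library pairs it was -0.18, 0.32 and 0.30, so its sign differed between pairs. CDKN2A (4.68, SE 0.32, adjusted p = 5.05e-06), TWIST1 (4.48, SE 0.31, adjusted p = 5.05e-06) and FOXF2, a mesodermal forkhead factor (4.49, SE 0.41, adjusted p = 2.56e-05), rose. POU3F2, a neural POU factor, fell from 6.62, 14.0 and 2.45 RPM in WT to 0.510, 0.507 and 0.119 RPM (-3.85, SE 0.62, adjusted p = 0.000747). A total of 104 genes were higher in Null than in both WT and restored cells, which was 78.8% of the 132 and 52.8% of the 197.

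In Het cells the transcripts called were lower than in WT. The median log2 ChIP difference from WT was 0.21 for H3K27me3, whose WT column chose the promoters, 0.28 for H3K27ac and 0.18 for input. It was 0.01, 0.26 and 0.12 at weaker-EZH2 promoters, and -0.15, 0.12 and 0.08 over all genes. Median H3K4me3 was 12.1 RPM in WT and 17.6 RPM in Het, and 9.54 and 14.1 RPM at weaker-EZH2 promoters. By limma 0 were higher and 51 lower than in WT (background 0.18% and 0.967%), with 22 and 176 at an unadjusted p below 0.05 and 4 and 81 with the replicate block (background 0.729% and 2.2%). The median log2 fold change was -0.28, beside -0.09 over all genes tested. Of the HOX genes 5 were lower, HOXA2, HOXB2, HOXB3 and HOXC4 among them. HOXB2 had 6.46, 20.3 and 3.71 RPM in WT and 0.367, 0.216 and 0.356 RPM in Het (-4.30, SE 0.54, adjusted p = 0.00246). Summed HOXA RNA was 1.96, 0.151 and 0.605 RPM in Het against at least 10.6 RPM in WT. SOX1, PAX3 and GBX2 fell on the neural list. NTRK2, a neurotrophin receptor named after its values were seen, had 11.5, 18.2 and 4.55 RPM in WT and 0.416, 0.0216 and 0.907 RPM in Het (-4.64, SE 0.72, adjusted p = 0.00875). The count depended on single libraries: it was 20 without Het library 2, 21 without WT library 2, 22 without WT library 1, 31 without Het library 1 and 85 without Het library 3. It was 2 when only these genotypes were fitted.

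Restored cells differed from WT at many of these genes. Here 16 were higher and 144 lower than in WT (background 3.4% and 6.9%), and 30 and 224 with the replicate block (background 6.27% and 16.1%). The limma calls were 2% and 18% of the genes tested, against 3.25% and 13% with weaker EZH2 and 4.91% and 8.88% without H3K4me3. The median log2 fold change was -0.42, beside -0.15 over all genes. The count of higher genes was between 8 and 11 without any 1 of the WT libraries or restored library 1 or 2. The count of lower genes was 63 without WT library 1, 92 without WT library 2, and 84 and 75 without restored library 1 or 2. SOX1 (-4.72, SE 0.49, adjusted p = 0.000228) and PAX6 (-3.61, SE 0.50, adjusted p = 0.00115) were lower, whereas CDKN2A was higher (2.07, SE 0.32, adjusted p = 0.00227) although below its Null level. Of the tested neural ectoderm genes 7 were lower and 0 higher, and of the 9 T-box genes 0 in either direction, also with the replicate block. The number of these genes at 1 RPM or more in a library was 412 to 450 in WT, 351 to 395 in Het, 429 to 501 in Null and 340 to 358 in restored cells. Het and restored libraries did not overlap with WT or Null ones, and the same held for all genes in the table (15099 to 15153 in Het and 14936 to 15123 in restored cells, against 15426 to 15509 in WT and 15280 to 15468 in Null).

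**Figure D5:**
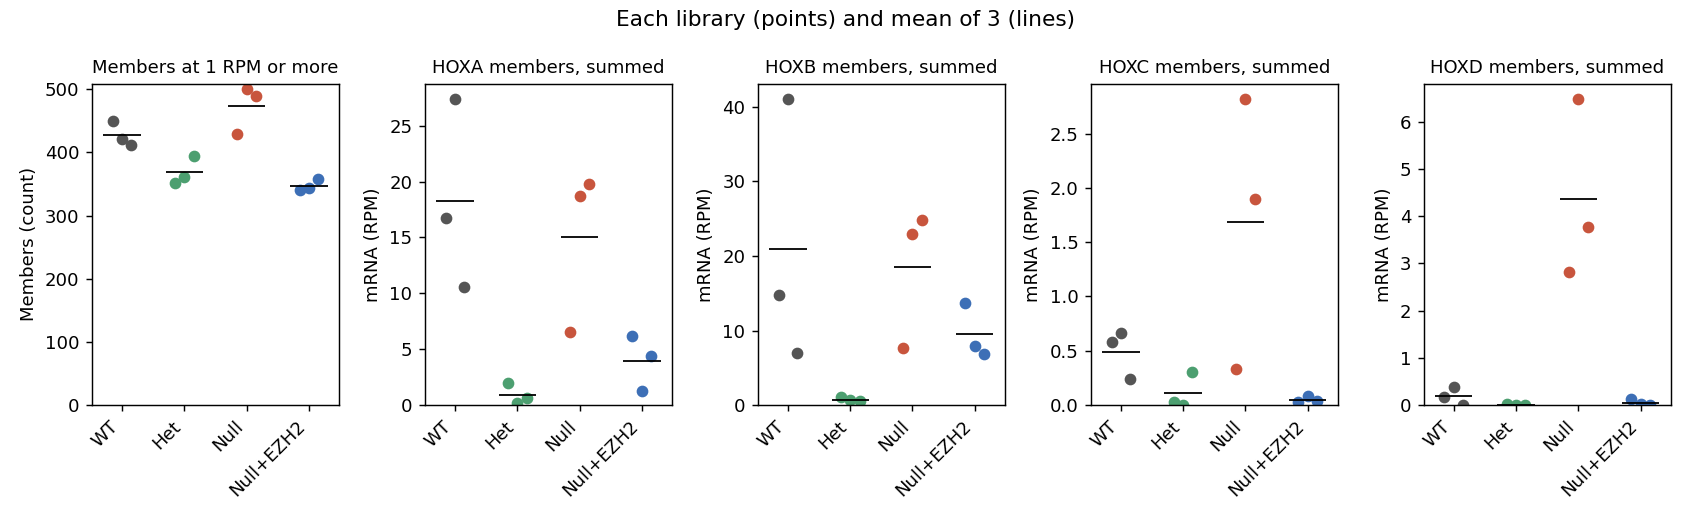
The number of the 1222 genes at 1 RPM or more in each RNA library, and the summed RPM of the HOX genes of the selection by cluster, with 1 point per library and a line at the mean of 3. Null libraries hold 429 to 501 such genes and restored libraries 340 to 358, with WT at 412 to 450.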

How the data were processed

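ChIP-seq (20 histone or input columns and 1 EZH2 column) and RNA-seq (12 libraries) of H9 ESCs were analysed. Both deposited tables hold log2 RPM values made by the authors. Reads were trimmed with Trim Galore 0.4.0 and aligned to GRCh38, ChIP with Bowtie2 2.2.5 and RNA with TopHat2 2.0.12 guided by Ensembl gene models. SeqMonk counted reads per window, extended, or per gene without regard to strand. Each histone mark had 1 column per genotype, for which the labels name 2 replicates and the study another number, and how they were combined is not given in the sources used here, so no ChIP test was made, and ChIP depths were inferred from the lowest value of a column, taken as 0.9 of 1 read. Native ChIP was used for histone marks and crosslinked ChIP for EZH2, a column known as EZH2 from its title since its antibody label is None. Raw RNA counts were not used here, so no count model was fitted.

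RPM was recovered from log2, with RNA values of 0.9 of 1 read set to 0. Genes reaching a mean of 0.1 RPM (20588 of 35805 rows) were fitted as log2(RPM + 0.1) with limma 3.58.1 (R 4.3.3), all 12 libraries in 1 model, empirical Bayes with trend, Benjamini-Hochberg adjustment over all genes tested and a threshold of 0.05. Fold changes on this scale understate those of low genes. Over the 18 same-number library pairs, deviations from group means correlated at 0.127 to 0.69 (mean 0.415, against -0.197 for different numbers), so a fit with the library number as a replicate block is given where it moved a count. ChIP differences are of log2(RPM + 0.1), counted past 1 log2 unit. Scripts were tested on simulated data. Members, gene lists and splits were chosen with earlier results of these data known. Named genes were the 8 most raised and up to 4 most lowered called genes with a mean over 1 RPM and no overlap between Null and restored libraries, 6 each by EZH2, remaining H3K27me3, H3K27ac gain and smallest change, 2 by p and 1 by level from each list, 3 on either side of the EZH2 limit, and genes the study names. Others are marked as chosen after their values were seen or are listed only as called members of a list. Windows were matched to GENCODE 44 (1205 IDs) and promoters to RefSeq (676 genes). Alternatives were the pseudocount, level filter, scaling, block, genotypes fitted, window choice, stricter EZH2 and each library left out. Results for a few genes are not reported here.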

Additional observations from a re-analysis of the deposited data

How the results depend on the processing

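No median of these promoters changed direction under any alternative listed. A count has no direction to change, so counts were judged by size only. Single library pairs, which differed in sign for the median of Null against WT, were not among these alternatives. Of 203 alternative values 147 stayed within tolerance and 56 moved. For ChIP medians, which have no replicates, the tolerance was 0.1 log2 unit.

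Between Null and restored cells the 132 higher genes became 46 of 429 at a mean of at least 1 RPM, 229 with the replicate block and 71 of 287 with EZH2 at or above 3.67 RPM, and 38 to 155 with a library left out. The 3 lower genes became 8 with the block, 1 with stronger EZH2 and 1 to 4. The median of 0.60 became 0.29 with a pseudocount of 1 RPM, 1.00 with stronger EZH2 and 0.54 to 0.69, and 0.59 with genes without reads in a genotype set at their bound. Against WT, the 197 higher genes in Null became 100 at 1 RPM, 93 with stronger EZH2 and 144 to 203, the 129 lower became 37 with stronger EZH2 and 90 to 124, and the median ranged from 0.11 to 0.24 with a library left out and was 0.25 with the median ratio. Rescaling by the median ratio moved the median of all genes from -0.13 to -0.01 in that comparison and from -0.15 to -0.01 between restored cells and WT, and gave 220 higher and 108 lower (27.4% and 13.5% of those tested, against 16.4% and 13.7% of all genes), then 21 and 102 (2.62% and 12.7%, against 5% and 4.25%).

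In Het, 0 higher became 1 with a pseudocount of 1 RPM or with the median ratio, 4 with the block and 0 to 4. The 51 lower became 31 at 1 RPM, 81 with the block, 2 with these genotypes alone, 17 with stronger EZH2 and 20 to 85, and the median of -0.28 became -0.11 with a pseudocount of 1 RPM and -0.30 to -0.22. In restored cells against WT, 16 higher became 30 with the block, 7 with stronger EZH2 and 8 to 19. The 144 lower became 88 at 1 RPM, 224 with the block, 49 with stronger EZH2 and 63 to 121. The median of -0.42 became -0.20 with a pseudocount of 1 RPM, -0.26 with no filter, -0.31 with the median ratio and -0.44 to -0.36.

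ChIP medians moved as follows. H3K27me3 (-4.05) became -3.38 with a pseudocount of 1 RPM, -3.67 when centred on promoters at or below the H3K27me3 limit in WT and -3.84 with stronger EZH2. H3K27ac against restored cells (0.70) became 0.44 with the larger pseudocount. Against WT (0.54) it became 0.34, 0.32 when centred and 0.36 with stronger EZH2. H3K4me3 (-0.36) became -0.51 with stronger EZH2. Null H3K27me3 over input (0.07) became 0.80 when centred and 0.80 with stronger EZH2.

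Of 37 named genes called between Null and restored cells, 0 changed direction in 483 alternative fits, but 21 lost their call in at least 1, 20 of them without Null library 2. Many of the 37 were chosen by their call, p or lack of overlap, so their direction could hardly change and is no measure of stability. Genes that were never called and lie near 0 changed sign: with the median ratio ASTN2 (-0.0215), LINC00599 (-0.021), MAPK4 (-0.0089) and POLE (-0.0136), and with a library left out ASTN2 (-0.13 to 0.15), HOXB2 (-0.56 to 0.11), IRX1 (-0.37 to 0.20), LINC00599 (-0.31 to 0.38), MAPK4 (-0.0399 to 0.12), OLIG2 (-0.35 to 0.14), PCGF5 (-0.0644 to 0.0625), POLE (-0.20 to 0.21), RP13-672B3.2 (-0.12 to 0.0755) and SOX21 (-0.0667 to 0.30). The causes were not tested. The median promoter held 14.3 to 21.5 H3K27ac reads per column and 17.3 H3K27me3 reads in Null, and 420 of the genes had too little RNA to be tested.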
